A study of Mus musculus with 6 samples.

Results

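Tiles of 2000 bp with an intermediate number of CpG sites were examined in mouse pluripotent stem cells. A tile was included when it lay on an autosome, held 41 to 80 distinct CpG sites and had at least 40 CpG reads in every library. This gave 30003 of the 441118 autosomal tiles that passed the read minimum, or 6.80%, and these tiles held 1560424 CpG sites, or 7.66% of all. Before the read minimum 37185 tiles had this number of sites, and the 7182 left out were mostly repeat-masked, with a median of 95.6% of their bases soft-masked in the reference against 15.4% in the tiles kept. Neither the CpG number nor the read minimum used the methylation level.

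Bisulfite sequencing of the whole genome, with post-bisulfite adaptor tagging, covered 3 cell types with 2 biological replicates each. Advanced pluripotent stem cells (ASCs) were kept in N2B27 medium with activin A, BMP4, the Wnt pathway agonist CHIR99021 and LIF, naive embryonic stem cells (ESCs) were kept in 2i/LIF, and epiblast stem cells (EpiSCs) represent the primed state. The labels give all cells as wild type and of strain 129S2/SvPasCrl. The study describes the lines analysed for methylation as female, and derives its lines from crosses of 129/sv females with GFP reporter males of mixed background, so strain and genotype differ between these sources. The sources used here do not say whether replicates came from separate lines, so p-values of library values measure only the spread between these samples. The p-values of single tiles rest mostly on read counts and on a spread shared over tiles.

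In mammalian DNA the cytosine of a CpG is usually methylated, and methylated cytosines mutate readily, so most of the genome holds few CpG sites. CpG islands are short stretches that kept many CpG sites, often lie over the start of a gene, and are usually free of methylation. Between these extremes lie island edges, promoters with moderate CpG content, CpG-rich coding exons and young repeats.

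The following 300 bp stretches are examples from tiles of equal CpG number at opposite levels. Each is the stretch with the most CpG sites in its tile outside annotated untranslated regions, CpG sites are in capitals, and the sequence is that of RefSeq GRCm38. The tiles held 60 CpG sites each and were chosen for an EpiSC level under 5% or over 95% in both libraries.
Kirrel2 promoter tile, low in EpiSCs, chr7:30457597-30457896, plus strand: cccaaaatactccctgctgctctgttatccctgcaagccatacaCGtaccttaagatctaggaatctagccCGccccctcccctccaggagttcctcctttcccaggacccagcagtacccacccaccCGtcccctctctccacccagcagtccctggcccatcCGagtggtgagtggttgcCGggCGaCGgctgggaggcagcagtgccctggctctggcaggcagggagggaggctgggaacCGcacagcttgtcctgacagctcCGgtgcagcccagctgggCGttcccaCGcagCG
Tdh promoter tile, high in EpiSCs, chr14:63508383-63508682, plus strand: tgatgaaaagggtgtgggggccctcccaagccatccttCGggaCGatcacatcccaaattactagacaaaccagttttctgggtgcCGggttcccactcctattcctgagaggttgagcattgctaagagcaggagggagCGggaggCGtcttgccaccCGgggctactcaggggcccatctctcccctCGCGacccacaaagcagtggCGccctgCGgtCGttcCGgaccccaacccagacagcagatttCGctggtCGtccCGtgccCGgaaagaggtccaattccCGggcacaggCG
Intergenic tile nearest Gm21833, high in EpiSCs, chr16:82918283-82918582, plus strand: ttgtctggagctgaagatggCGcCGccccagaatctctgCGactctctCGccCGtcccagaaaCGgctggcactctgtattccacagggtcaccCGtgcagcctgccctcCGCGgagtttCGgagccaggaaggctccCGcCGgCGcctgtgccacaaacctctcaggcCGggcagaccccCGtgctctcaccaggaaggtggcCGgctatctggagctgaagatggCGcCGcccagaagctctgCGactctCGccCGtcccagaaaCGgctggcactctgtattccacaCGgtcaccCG

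The tile at the promoter of Kirrel2, an adhesion molecule of the immunoglobulin superfamily, was at 1.45% and 2.40% in the EpiSC libraries, 3.29% and 1.56% in the ESC libraries, and 0.465% and 0.389% in ASCs. The tile at the promoter of Tdh, threonine dehydrogenase of naive cells, was at 95.6% and 95.4% in EpiSCs, 3.19% and 5.49% in ASCs, and 0% and 1.99% in ESCs, where 0 of 220 reads allows a level of up to 1.36%. The first was low in all 6 libraries, and the second was high in EpiSCs only. The tile 89619 bp from the start of Gm21833 read 96.2% and 95.5% in EpiSCs, 27.6% and 32.9% in ASCs, and 22.4% and 35% in ESCs. In this tile the ASC and ESC libraries overlapped.

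The libraries held 63803799 to 74925271 CpG reads, at a mean coverage of 2.96 to 3.46 reads per listed CpG site. The level of a tile was taken as its methylated reads over all its CpG reads, and the median tile had 209 to 237 reads per library. For the median depth of 223 reads the 95% Wilson interval of a level of 50% runs from 43.7% to 56.7%, and at the minimum of 40 reads it runs from 35.2% to 64.8%. Such intervals, and the limits given for levels of 0%, account for counting error alone. They also take the reads of a tile as independent. A sequenced read over several CpG sites counts at each of them, so these intervals and limits may be too narrow.

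The levels of intermediate tiles formed 2 peaks in EpiSCs and ASCs and 1 peak in ESCs. The median tile was at 42.7% and 42.9% in the ASC libraries (mean 42.8% ± 0.16, SD, n = 2). In ESCs it was at 11.9% and 12.2% (12.1% ± 0.17), and in EpiSCs it was at 90% in both libraries. The groups did not overlap, and the exact permutation test over the 15 assignments of the libraries to groups gave p = 0.0667, the smallest p this design allows. All tests on library values that compare the 3 cell types below reached this same p.

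In EpiSC replicate 1 the share of tiles per 5-point bin was 5.003% at the low peak between 10% and 15% methylation, fell to 1.19% between 55% and 60%, and rose to 28.2% between 90% and 95%. EpiSC replicate 2 had its low peak between 5% and 10%, with 5.35% of tiles, and its high peak in the same bin as replicate 1, with 28.0%. In ASCs the low peak lay between 0% and 5%, with 11.3% and 11.2% of tiles, and the high peak between 75% and 80%, with 8.003% and 8.13%. The valley between them was shallower than in EpiSCs, with 3.35% of tiles in its lowest bin in replicate 1 and 3.45% in replicate 2. In ESCs 30.3% and 30.1% of tiles lay between 0% and 5%, no later bin formed a second peak, and the highest tile reached 70.4%.

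**Figure D1:**
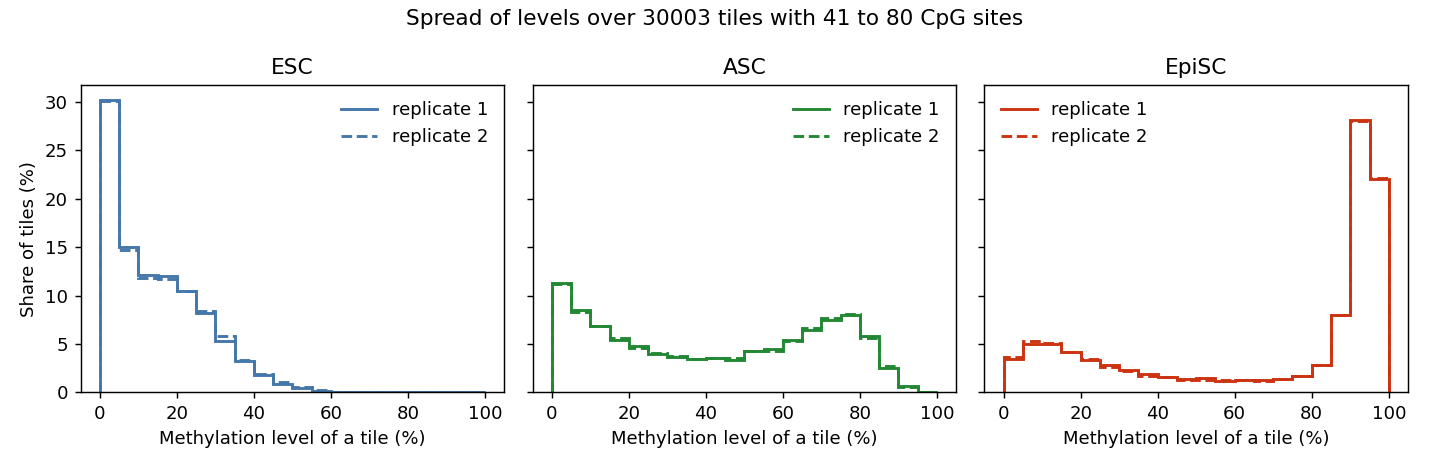
Share of the 30003 tiles (vertical axis, %) in each 5-point bin of methylation level (horizontal axis, %), for ESCs, ASCs and EpiSCs, with a solid line for replicate 1 and a dashed line for replicate 2. EpiSCs and ASCs show a peak at each end, with the high peak between 90% and 95% in EpiSCs and between 75% and 80% in ASCs, and ESCs show a single peak near 0.

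A tile under 20% is called low here and a tile over 80% high. The share of low tiles was 68.9% ± 0.77 in ESCs, 32.1% ± 0.16 in ASCs and 17.9% ± 0.43 in EpiSCs (SD, n = 2). High tiles made up 60.98% ± 0.054 of the tiles in EpiSCs, 8.77% ± 0.0071 in ASCs and 0% in ESCs. The ASC share of high tiles depended on the limits, at 0.575% with limits of 10% and 90% and 24.5% with limits of 30% and 70%. With limits of 10% and 90% the share of low tiles was 19.7% in ASCs and 8.67% in EpiSCs. In ASCs 59.1% ± 0.15 of the tiles lay between 20% and 80%, against 21.1% ± 0.38 in EpiSCs. Sparser tiles were mostly high in EpiSCs and denser tiles mostly low. Of the tiles with 40 or fewer sites 0.305% ± 0.012 were low and 91.8% ± 0.21 high. Of those with over 80 sites 82.1% ± 0.55 were low and 5.78% ± 0.040 high. The intermediate tiles graded between these. In EpiSCs 5.75% ± 0.20 were low and 76.7% ± 0.12 high at 41 to 50 sites. At 61 to 70 sites the shares were 40.4% ± 0.82 and 31.6% ± 0.020, and at 71 to 80 sites 58.7% ± 1.1 and 16.6% ± 0.13.

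The class of a tile was largely the same in both libraries of a cell type. Of the tiles, 94.3% had the same class in both EpiSC libraries, 89.998% in both ESC libraries and 88.6% in both ASC libraries, and none was low in one replicate and high in the other. Of the 2631 tiles that were high in ASC replicate 1, 62.3% were also high in ASC replicate 2. The ASC high peak lay just under the limit of 80%. In EpiSCs 98.4% of the 18307 high tiles and 91.1% of the 5273 low tiles of replicate 1 kept their class in replicate 2.

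Promoters held most of the low tiles. A tile was placed in a promoter when it overlapped the stretch from 1000 bp upstream to 100 bp downstream of any annotated transcription start, otherwise in an exon, an intron or between genes. There were 12761 promoter tiles (42.5%), 7449 exon tiles, 4094 intron tiles and 5699 intergenic tiles. With the class set in EpiSC replicate 1, 81.0% of the low tiles were promoter tiles, against 61.7% of the middle tiles and 24.7% of the high tiles. Exon tiles made up 34.5% of the high tiles and 6.71% of the low tiles, and intergenic tiles made up 23.6% and 6.94%.

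Promoter tiles themselves were split between the peaks. In EpiSCs 34.1% ± 0.82 of them were low and 35.4% ± 0.11 high (SD, n = 2), with the median promoter tile at 37.9% and 37.0% in the libraries. Exon tiles were mostly at the high peak, with 4.83% ± 0.10 low and 84.7% ± 0.057 high. Intron tiles were low in 7.06% ± 0.28 and high in 77.0% ± 0.035, and intergenic tiles low in 6.49% ± 0.099 and high in 75.8% ± 0. In ASCs 55.3% ± 0.17 of promoter tiles were low, against 13.5% ± 0.057 of exon tiles, 15.8% ± 0.29 of intron tiles and 16.2% ± 0.17 of intergenic tiles.

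**Figure D2:**
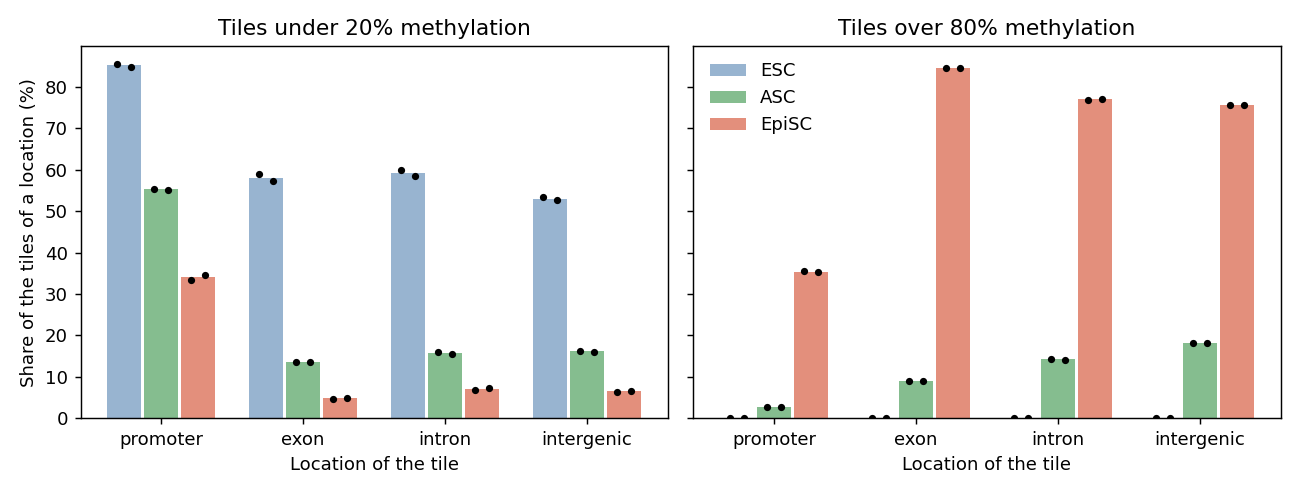
Share of the tiles of each location (vertical axis, %) that were under 20% methylation (left) or over 80% (right), by location (horizontal axis). Bars give the mean of 2 libraries and points the libraries. Promoter tiles were low in 34.1% in EpiSCs and exon tiles in 4.83%, and no tile was over 80% in ESCs.

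Pooled over their reads, promoter tiles of the EpiSC libraries were at 47.3% and 46.5%, those of the ASC libraries at 27.4% and 27.7%, and those of the ESC libraries at 8.40% and 8.54%. Intergenic tiles, in the same order, were at 74.5% and 73.9%, 51.8% and 52.2%, and 18.7% and 18.97%. Promoter tiles were lower than intergenic tiles in 6 of 6 libraries, by -24.5 points ± 0.046 in ASCs, -10.4 points ± 0.095 in ESCs and -27.3 points ± 0.11 in EpiSCs (exact two-sided sign-flip permutation test, p = 0.03125, adjusted over 3 pairs of locations 0.0469). The test counts the 6 libraries as independent. They are 2 replicates of each of 3 cell types, with near-equal gaps within a cell type, so the test overstates the number of independent samples.

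Exon and intron tiles together are called gene body tiles. Promoter tiles were lower than these in 6 of 6 libraries, by -25.1 points ± 0.0011 in ASCs, -8.95 points ± 0.17 in ESCs and -35.3 points ± 0.28 in EpiSCs (same exact test with the same limit, adjusted p = 0.0469). Gene body and intergenic tiles were not told apart over the 6 libraries (exact p = 0.406). With a read minimum of 100, gene body tiles were higher by 5.17 points over all libraries (same exact test, p = 0.03125). In pooled level gene body tiles were higher by 7.97 points ± 0.16 in EpiSCs and by 0.628 points ± 0.044 in ASCs, and the gap was -1.40 points ± 0.075 in ESCs. The ASC direction turned for the median tile, at 59.8% ± 0.22 in gene bodies and 62.8% ± 0.11 between genes. All 3 gaps in points differed between the cell types by more than the spread between replicates (exact permutation test, p = 0.0667). As a ratio both promoter gaps had the opposite order of cell types. The promoter level was 0.450 of the intergenic level in ESCs, 0.529 in ASCs and 0.632 in EpiSCs. Of the gene body level it was 0.486, 0.523 and 0.571 in the same order. With 46 to 75 CpG sites the promoter to intergenic gap in points was not wider in EpiSCs than in ASCs (difference 0.295 points).

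Low tiles held more CpG sites than high tiles, and more of them in their densest 500 bp. With the class set in EpiSC replicate 1, the median low tile held 63 CpG sites, with 38 of them in its densest 500 bp. The median middle tile held 51, with 28 in 500 bp, and the median high tile 46, with 21. Over all locations GC content was at a median of 50.1% in low, 51.2% in middle and 50.05% in high tiles, while the observed over expected number of CpG sites was 0.501, 0.408 and 0.379. Within locations the relation to GC content differed. In promoter tiles the EpiSC median was 28.5% at 45% GC or less, 25.9% at 45 to 50% GC and 73.8% over 55% GC. From 45% GC or less to over 55% GC it went from 92.2% to 59.3% in intergenic tiles and from 93.9% to 93.2% in gene body tiles. Tiles share sequence context with their neighbours and are no replicates, so these features are given without a test.

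The EpiSC median fell from 93.2% ± 0.047 in tiles with 15 or fewer CpG sites in any 500 bp to 14.1% ± 0.53 in tiles with over 40 (SD, n = 2). Over the same range the ASC median fell from 67.1% ± 0.47 to 7.04% ± 0.14 and the ESC median from 20.7% ± 0.14 to 1.95% ± 0.012. The location shifted where the fall began. At 26 to 30 sites in 500 bp the EpiSC median was 40.4% ± 0.82 in promoter tiles, 93.1% ± 0.13 in gene body tiles and 91.4% ± 0.078 in intergenic tiles. At 36 to 40 sites it was 17.9% ± 0.53, 57.5% ± 2.9 and 88.2% ± 0.18.

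**Figure D3:**
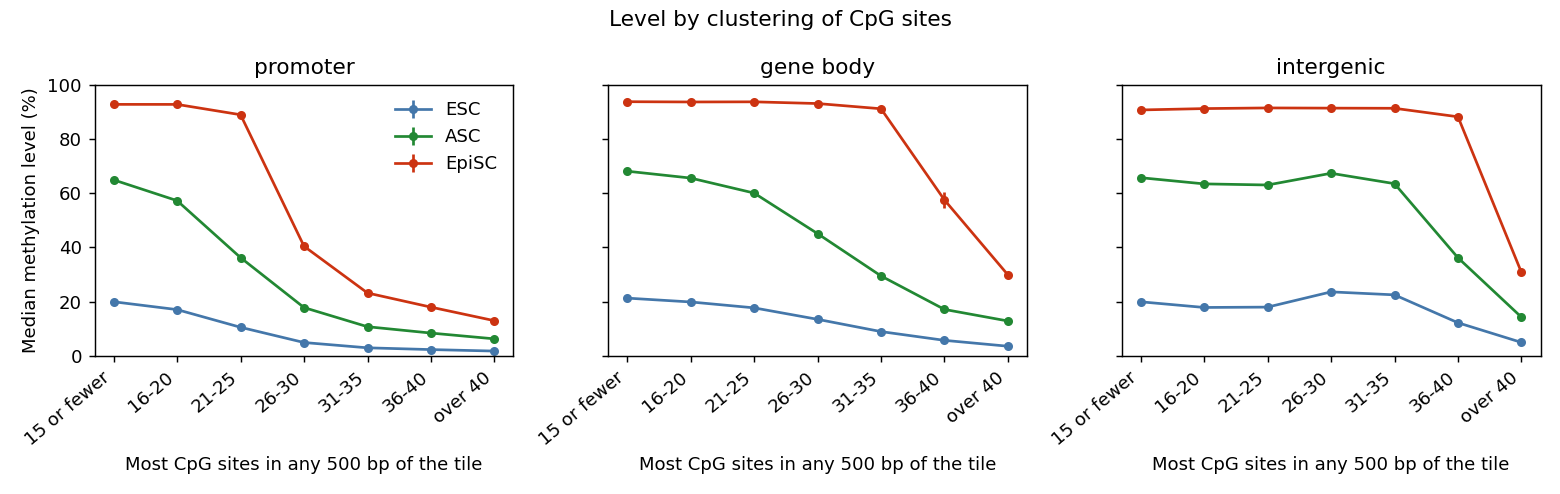
Median methylation level (vertical axis, %) against the largest number of CpG sites in any 500 bp of the tile (horizontal axis), for promoter, gene body and intergenic tiles. Points give the mean and bars the SD of 2 libraries. At 26 to 30 sites the EpiSC median was 40.4% in promoter tiles and over 90% in the other locations.

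Clustering was also read among tiles of similar CpG number. Of the promoter tiles with 41 to 50 CpG sites, the 2350 with 20 or fewer in any 500 bp had an EpiSC median of 92.8% ± 0.068, and the 625 with over 30 had one of 19.8% ± 0.85. In gene bodies the medians were 93.7% ± 0.018 over 5148 tiles and 90.8% ± 0.90 over 248 tiles. Between genes they were 91.2% ± 0.046 over 1988 tiles and 92.5% ± 0.20 over 209 tiles. In gene bodies the share of low tiles still rose with clustering, from 0.680% to 20.6% in EpiSCs, and the ASC median fell from 66.2% ± 0.25 to 33.7% ± 1.3.

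At 71 to 80 CpG sites the EpiSC median went down with clustering in all 3 locations. From tiles with 30 or fewer sites in any 500 bp to tiles with over 40, it went from 93.4% ± 0.27 (78 tiles) to 27.8% ± 0.042 (164 tiles) in gene bodies. Between genes it went from 87.4% ± 2.5 (55 tiles) to 25.7% ± 0.031 (57 tiles), and in promoters from 26.9% ± 1.6 (142 tiles) to 12.4% ± 0.81 (1396 tiles).

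Distance to a gene start gave a similar gradient. The 7234 tiles that held a protein-coding start had an EpiSC median of 21.4% ± 0.78, and 47.6% of them were low. Tiles 1 to 1000 bp away had a median of 36.3% ± 0.76, and tiles over 1000 and up to 5000 bp away one of 92.6% ± 0.10. A protein-coding start lay in 64.04% of low tiles, 40.5% of middle tiles and 6.87% of high tiles. A tile with over 80 CpG sites lay next to 22.1% of the low tiles, 19.6% of the middle tiles and 3.02% of the high tiles.

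Around the starts themselves, CpG sites of these tiles were at 15.8% ± 0.40 in EpiSCs, 6.99% ± 0.058 in ASCs and 2.27% ± 0.068 in ESCs in the first 200 bp of the transcript. Between 1000 and 1200 bp inside the transcript the levels were 65.5% ± 0.17, 31.6% ± 0.46 and 9.60% ± 0.35. The dip at the start had the same place in all 6 libraries and differed in depth.

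**Figure D4:**
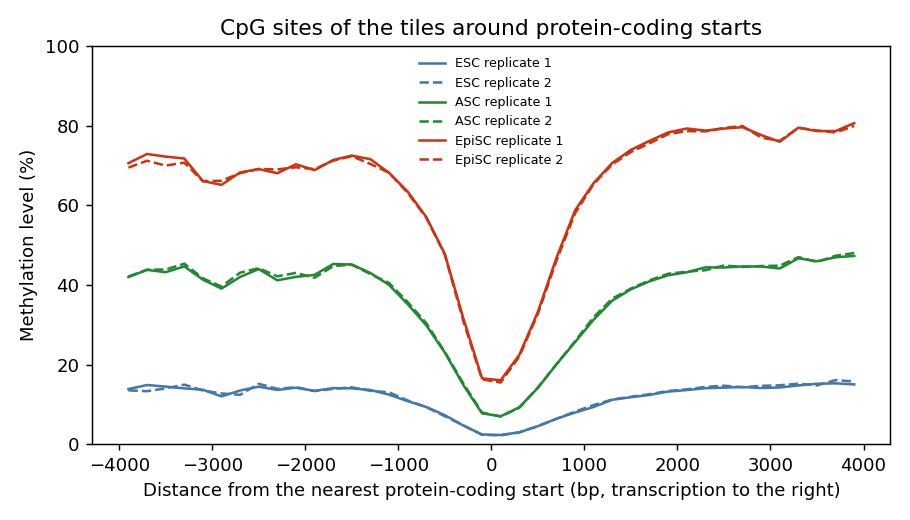
Methylation level of CpG sites in the tiles (vertical axis, %) by distance from the nearest protein-coding start (horizontal axis, bp, in bins of 200 bp, with transcription to the right), with 1 line per library. The lowest bin is at 15.8% in EpiSCs, 6.99% in ASCs and 2.27% in ESCs.

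Middle tiles in EpiSCs often held low and high stretches side by side. In the 6423 middle tiles of EpiSC replicate 1, the densest 500 bp, placed by sequence alone, was at 24.1% and 23.1% in the EpiSC libraries and the other 1500 bp at 68.5% and 67.9%. In high tiles these were 93.8% ± 0.11 and 92.6% ± 0.051 (SD, n = 2), and in low tiles 1.66% ± 0.14 and 27.2% ± 0.22. Each tile was also cut into sections of 500 bp, and tiles with 20 reads in every section of replicate 2 were read there. Of 2641 such middle tiles 55.4% held both a section under 20% and a section over 80%, and the median range over sections was 78.2 points. Of 1103 low tiles 35.8% did, with a median range of 60 points, and of 8333 high tiles 0.180% did, with a median range of 8.25 points.

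Of 9764 middle tiles of ASC replicate 1 read in ASC replicate 2, 6.19% held both a low and a high section, and the median range over sections was 34.9 points. The ASC high peak lay between 75% and 80% and the EpiSC high peak between 90% and 95%, and the part of this in the share and in the range was not tested.

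The middle state in ASCs was mostly the high state in EpiSCs. On the mean of 2 libraries, 14672 tiles (48.9%) were middle in ASCs and high in EpiSCs, 5051 were low in both, 3413 were low in ASCs and middle in EpiSCs, and 2479 were high in both. A set of 1163 tiles was low in ASCs and high in EpiSCs, and 41.8% of it lay in promoters. The reverse was seen in 1 tile, between genes and 28580 bp from the start of Mup8, a major urinary protein gene. It read 83.3% and 84.4% in ASCs, 20% and 18.7% in EpiSCs (mean 19.3%), and 23.8% and 25.7% in ESCs.

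**Figure D5:**
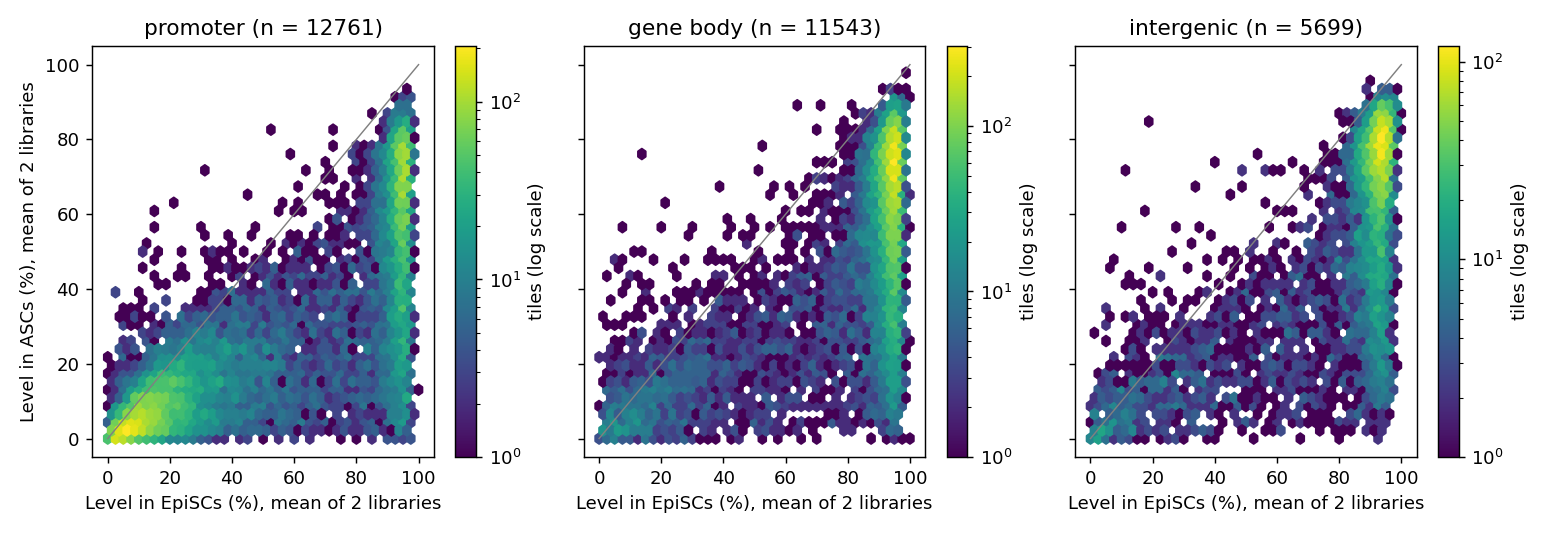
Level in ASCs (vertical axis, %) against EpiSCs (horizontal axis, %), each the mean of 2 libraries, for promoter, gene body and intergenic tiles, with the number of tiles per hexagon in colour (log scale) and a line at equal levels. Promoter tiles gather at low levels in both cell types, and the other tiles form a column near 90% in EpiSCs that spans a wide range in ASCs.

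On a scale where ESCs are at 0 and EpiSCs at 1, the pooled ASC level lay at 0.496 ± 0.0056 in promoter tiles, 0.525 ± 0.0031 in exon tiles, 0.596 ± 0.0039 in intron tiles and 0.599 ± 0.0047 in intergenic tiles (SD, n = 2, replicates matched by number). Intron and intergenic tiles overlapped between replicates. Within each replicate intergenic tiles were slightly higher, at 0.596 against 0.593 and 0.603 against 0.599, and this was not tested.

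Repeat content set apart a group of high tiles. The 2338 tiles with over 60% soft-masked bases lay between genes in 71.3% and in promoters in 5.05%. Their median was 93.3% ± 0.10 in EpiSCs, 77.2% ± 0.27 in ASCs and 32.2% ± 0.49 in ESCs, against 91.2% ± 0.027, 46.7% ± 0.014 and 13.2% ± 0.22 in the 8415 tiles with 10% or less. Of those 8415 tiles 3981 were promoter tiles. Within locations the ASC medians were 77.1% against 52.1% between genes, 78.5% against 62.1% in gene bodies and 74.3% against 23.3% in promoters. The part of location in the difference was not tested. Of the 3555 tiles over 30% in ESCs, 1361 were among these repeat tiles.

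Each tile was tested in a quasi-binomial model of its methylated and unmethylated reads, fitted over all 445422 autosomal and X tiles, with dispersion moderated by limma. The prior of the dispersion had 144.7 degrees of freedom, so the dispersion of a tile came mostly from the other tiles. The p of a single tile thus follows its read counts more than the spread of its own replicates. A tile was called at a Benjamini-Hochberg adjusted p under 0.05 and a difference of at least 20 points. The 3 comparisons share libraries, so their counts are not independent. Against EpiSCs, 15882 intermediate tiles were lower in ASCs (52.9%), against 53.5% of all tiles, and 114 were higher (0.380%), against 0.1% of all tiles. Against ESCs, 18016 were higher in ASCs (60.05%), against 91.1% of all tiles, and none was lower, also at 0% of all tiles. The same call rule also gave 0 tiles lower in ASCs than in ESCs with limma on M values and with Fisher's exact test. At an unadjusted p under 0.05 with no minimum difference the model gave 23 such tiles, limma on M values 30 and Fisher's exact test 26. EpiSCs were higher than ESCs in 23852 (79.5%), against 96.5% of all tiles, and lower in 1, against 0.000898% of all tiles.

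Calls differed by location. Against EpiSCs, ASCs were lower in 43.0% of promoter tiles, against 52.6% of promoter tiles of any CpG number, 70.5% of exon tiles, 55.8% of intron tiles and 50.1% of intergenic tiles. In the 6348 promoter tiles with 30 or more CpG sites in 500 bp the share was 22.2%. A tile under 20% in EpiSCs cannot be called lower in ASCs. This held for 34.1% of promoter tiles, 4.83% of exon tiles, 7.06% of intron tiles and 6.49% of intergenic tiles. The shares called follow this floor in part, and shares among the tiles that could be called were not computed. Against ESCs, ASCs were higher in 35.6% of promoter tiles, against 69.9% of promoter tiles of any CpG number, 79.8% of exon tiles, 77.8% of intron tiles and 76.3% of intergenic tiles. A tile under 20% in ASCs cannot be called higher than in ESCs. This held for 55.3% of promoter, 13.5% of exon, 15.8% of intron and 16.2% of intergenic tiles. It held for 32.1% of all intermediate tiles and 6.49% of autosomal tiles of any CpG number.

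Among promoter tiles lower in ASCs than in EpiSCs, the largest difference was at Trim25, a ubiquitin ligase of antiviral signalling (chr11:88998001-89000000). Its EpiSC levels were 97.1% and 98.3%, its ASC levels 0.253% and 0.744% and its ESC levels 0.261% and 0.279%, a difference from EpiSCs to ASCs of -97.2 points (limma-moderated model, adjusted p = 1.2e-76). Apoe, which encodes a lipid carrier, had EpiSC levels of 97.03% and 97.8%, ASC levels of 1.20% and 1.61%, and ESC levels of 0% (0 of 425 reads, which allows up to 0.706%) and 0.498%. Both tiles were near 0 in ASCs and ESCs and near full methylation in EpiSCs. Nphs1os, Gm47430, the cytidine deaminase gene Apobec3 and H2-M5, a histocompatibility gene, differed by -96.1, -95.6, -94.6 and -94.2 points.

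Away from promoters, exon tiles of Pml, which organises nuclear bodies, and of the sialyltransferase gene St3gal2 differed by -94.3 and -94.1 points between ASCs and EpiSCs. Intron tiles of the sorting nexin gene Snx18 and of Fnbp1 differed by -96.2 and -94.9 points. Intergenic tiles nearest Ip6k3 and Clstn3 differed by -92.8 and -91.9 points.

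Tiles higher in ASCs than in EpiSCs were fewer and differed by less. The promoter tile of Cacna1e, a calcium channel gene, read 74.1% and 72.2% in ASCs, 29.6% and 32.9% in EpiSCs, and 18.8% and 21.5% in ESCs (difference 41.9 points, limma-moderated model, adjusted p = 2.76e-15). The promoter tiles of the transcription factor genes Barhl1, Bhlhe22 and Runx3 differed by 40.6, 40.5 and 37.1 points. Those of the glutamate transporter gene Slc17a6 and the phosphodiesterase gene Pde4b differed by 40.1 and 37.3 points. The tiles of Cacna1e, Barhl1, Slc17a6 and Runx3 lay 19934, 2412, 1995 and 1505 bp from the nearest protein-coding start. They counted as promoter tiles through other annotated starts. An exon tile of Pax3, a neural crest and muscle factor, read 51.3% and 45.8% in ASCs, 4.87% and 2.87% in EpiSCs, and 14.6% and 20.5% in ESCs.

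Other tiles of this direction lay in an exon of Gm26872, with 43.9 points, in introns of 4930488B22Rik and 9130024F11Rik, with 62.9 and 40.7 points, and between genes near Mup8 and Foxl2, with 64.5 and 42.8 points. The 1 tile lower in EpiSCs than in ESCs lay at the promoter of Lhx9, a LIM homeobox factor. It read 0.855% and 0.585% in EpiSCs, 22.4% and 21.4% in ESCs, and 22.8% and 20.7% in ASCs (EpiSC minus ESC -21.2 points, limma-moderated model, adjusted p = 9.26e-17).

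Against ESCs, the largest promoter difference in ASCs was at Peg13, an imprinted non-coding RNA, which read 66.2% and 77.4% in ASCs, 62.1% and 63.9% in EpiSCs, and 1.25% and 4.05% in ESCs. Dlgap3, a postsynaptic scaffold gene, Gm42471 and Gm47459 followed with 68.2, 65.1 and 64.5 points. Exon tiles of the receptor tyrosine kinase gene Kit and of Nr1h4, the bile acid receptor, differed by 73.9 and 68.1 points, and intron tiles of Slc38a4 and Ezr by 67.8 points each. Intergenic tiles nearest Eps8 and Ppp2r5c differed by 64.02 and 63.7 points.

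Between EpiSCs and ESCs the promoter tiles of Trim25 and Apoe again led, with 97.4 and 97.2 points, followed by Platr12 with 97.1 points and Kcnq1ot1, the imprinted antisense RNA, with 96.6 points. Kcnq1ot1 read 55.7% and 63.4% in ASCs, between the other cell types. The exon tiles of Msi1 and Zbtb7b differed by 95.8 and 95.5 points, the intron tiles of Snx18 and Mtcl1 by 96.5 and 96.4 points, and the intergenic tiles nearest Gli2 and Wwc2 by 95.7 and 95.6 points.

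Gene groups differed in which peak their promoter tiles joined. For each gene the promoter tile with the largest overlap was used. A promoter tile could rest on any annotated start, so it need not lie at the main start of its gene. Of 20780 protein-coding genes 8699 had a promoter tile of intermediate CpG number, in 8116 tiles. Of these genes 43.9% were low in EpiSCs and 23.1% high, and ASCs were lower than EpiSCs at 3007 and higher at 24. In ASCs 5835 of these genes were low, and ASCs were higher than ESCs at 2143 and lower at 0. The groups are described by their counts beside these, without a test.

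Of 27 genes of respiratory complex I, 24 were low in EpiSCs, and of 40 cytosolic ribosomal protein genes 30 were. The counts were 37 of 57 for the mitochondrial ribosome, 20 of 27 for the proteasome, 14 of 25 for translation initiation factors and 24 of 31 for histone genes, which shared 27 tiles. Outside these housekeeping families, of the 212 zinc finger genes 112 were low, and of the 93 developmental factor genes (Hox, Pax, Lhx, Fox, Sox, Gata and related families) 52 were. The lowest EpiSC means in all these families were 3.18% and 3.804% at Ndufb4 and Ndufv1, 2.45% and 2.56% at Rps23 and Rps18, 2.10% and 2.30% at Mrpl13 and Mrps9, and 3.56% and 4.35% at Psma6 and Psma2. Eif3m and Eif4a2 were at 2.48% and 3.74%, Hist1h2bb and Hist1h3c, which share a tile, at 3.17%, Zfp608 and Zfp119a at 0.370% and 1.35%, and Pax6 and Nkx3-2 at 0.626% and 1.22%. Each family also had members far above these. Each level is that of the tile read, which need not lie at the main start of the gene.

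The highest EpiSC means were 32.6% and 88.3% at Ndufc2 and Ndufv3, 94.4% and 96.4% at Rpl7a and Rpl10l, 95.1% and 95.7% at Mrps24 and Mrpl38, and 43.5% and 93.7% at Psmb8 and Psmb11, of the immune and thymic proteasomes. Eif3d and Eif3b were at 96.6% and 96.8%, Hist1h2aa and Hist1h2ba, which share a tile, at 96.8%, Zfp865 and Zfp541 at 97.8% and 99.2%, and Foxi2 and Foxp1 at 95.4% and 95.5%. Among the developmental factors ASCs were lower than EpiSCs at 19 and higher at 4, and leaving out ASC replicate 2 raised the latter count to 7.

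Families with tissue-restricted use differed among themselves. All 10 olfactory receptor genes with such a tile were high in EpiSCs, of 1127 in the family. Keratin genes, which encode epithelial filaments, were high at 13 of 18 and low at none, and protocadherins, the adhesion molecules of neurons, were high at 22 of 28. ASCs were lower than EpiSCs at 25 of the 28 protocadherin genes, with a median ASC level of 13.8% against 90.7% in EpiSCs. EpiSC means ran from 84.96% and 86.4% at Olfr222 and Olfr71 to 93.9% and 93.99% at Olfr314 and Olfr283, from 44.7% and 53.2% at Krt1 and Krt18 to 95.1% and 96.3% at Krt4 and Krt7, and from 9.11% and 10.7% at Pcdh1 and Pcdhac2 to 95.9% and 96.9% at Pcdhga2 and Pcdhga5. Of 15 cytochrome P450 genes 6 were low and 3 high, and of 2 vomeronasal receptor genes 1 was low and 1 high, namely Vmn1r4 at 6.15% and Vmn2r44 at 83.9%. The P450 genes ran from 6.25% and 7.43% at Cyp39a1 and Cyp20a1 to 94.5% and 96.2% at Cyp2t4 and Cyp2r1.

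Germline genes, which act in meiosis and in transposon defence of germ cells, were almost all at the high peak in EpiSCs. Of 39 genes 31 had an intermediate promoter tile, 28 were high in EpiSCs and ASCs were lower at 28, with a median difference of -48.1 points. Dmc1, the meiotic recombinase, was at 3.16% ± 0.43 in ASCs and 94.3% ± 1.5 in EpiSCs, while Dazl, an RNA-binding protein of germ cells, was at 71.3% ± 3.2 and 93.1% ± 0.76 (SD, n = 2). The lowest EpiSC levels were at Msh5, with 9.42% ± 0.24, and Mei4, with 27.1% ± 5.0. The highest were at Tdrd1 and Ddx4, both at 97.6%.

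Naive pluripotency genes fell into both peaks in EpiSCs. Of 21 genes 13 had an intermediate promoter tile, with 7 low and 5 high in EpiSCs. In ASCs 12 of the 13 were low, as were 5835 of all 8699 protein-coding genes with such a tile. The 5 genes high in EpiSCs were called lower in ASCs, as were 3007 of the 8699 protein-coding genes. EpiSC libraries read 96.1% ± 1.0 at Zfp42, a zinc finger marker of naive cells, while 0 of 96 and 0 of 61 reads were methylated in ASCs, which allows up to 3.12% and 4.92% (SD, n = 2). Dppa3, a maternal factor, was at 10.5% ± 2.0 in ASCs and 96.99% ± 0.33 in EpiSCs, and Tcl1, Gdf3 and Tdh were between 89.8% and 95.5% in EpiSCs. Nr5a2, a nuclear receptor, was at 1.22% ± 0.68 in EpiSCs and 0.628% ± 0.042 in ASCs, and Fbxo15, an F-box protein of naive cells, at 1.66% ± 0.56 and 0.833% ± 0.17. The study names Fbxo15 among naive genes with demethylated promoters in ASCs compared with EpiSCs. Its promoters ran from 1000 bp upstream to 100 bp downstream of the start. The 2000 bp tile read here did not show this, and the reason was not tested.

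Of 21 primed epiblast and gastrulation genes 11 had such a tile, with 7 low and 2 high in EpiSCs. The 2 high genes encode the Nodal inhibitors Lefty1, at 83.8% ± 2.6 in EpiSCs and 4.94% ± 1.4 in ASCs, and Lefty2, at 94.0% ± 0.28 and 1.87% ± 0.13. Both were called lower in ASCs, and the other 9 were not called. Of the 8699 protein-coding genes with such a tile 3007 were called lower. Otx2 and Gata4, regulators of the epiblast and of endoderm, had the lowest EpiSC levels, at 0.513% ± 0.73 and 1.23% ± 0.42.

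None of the 15 imprinted genes was low in EpiSCs. Imprinted genes are expressed from 1 parental allele, and the reads here do not tell the alleles apart. EpiSC levels ran from 30.7% ± 1.7 at Meg3 and 32.8% ± 1.4 at Impact to 97.6% at Kcnq1ot1 and Nap1l5, and 6 genes were high. ESC levels had a median of 2.61%. ASCs were lower than EpiSCs at 10 of the 15 and higher than ESCs at 13, against 3007 and 2143 of the 8699 protein-coding genes with such a tile.

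Of 9 genes of the methylation machinery 7 had an intermediate promoter tile and 5 were low in EpiSCs. Tet1, which oxidises methylcytosine, was at 96.7% ± 0.089 in EpiSCs and 24.6% ± 1.6 in ASCs, and Dnmt3l, a cofactor of the de novo methyltransferases, at 82.9% ± 2.8 and 17.4% ± 3.7. Both were called lower in ASCs, as were 3007 of the 8699 protein-coding genes with such a tile. The lowest EpiSC levels were at Tet3, with 2.25% ± 1.2, and at Dnmt1, the maintenance methyltransferase, with 6.999% ± 0.20.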

How the data were processed

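The authors trimmed reads with Trim Galore, mapped them to GRCm38 with Bismark 0.16.3, removed duplicates and summarised each symmetric CpG site with MethPipe. The deposited files give, per CpG site, the methylation level as a fraction and the coverage as a read count, both made by the authors. Methylated reads were recovered as the fraction times the coverage, rounded to a whole count. Sites were summed into 2000 bp tiles. Locations used the GENCODE M21 annotation of GRCm38.

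Library values were compared with exact permutation tests (scipy 1.17.1). Tiles were tested in a quasi-binomial model with group as the only term, dispersion moderated by the squeezeVar function (limma 3.58.1, R 4.3.3) and Benjamini-Hochberg adjustment over all tiles. The model was also run on simulated data, and the outcome is not reported here. The median tile had 209 to 237 reads per library.

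The named tiles were those with at least 100 reads in every library and the largest difference in each direction, namely 6 promoter tiles for ASCs against EpiSCs and 4 for the other comparisons, and 2 each for exons, introns and intergenic tiles, with 1 tile per gene. In gene lists the 2 lowest and the 2 highest EpiSC levels were named, and other list genes named here were chosen after their values were seen. The tiles and gene lists were chosen with earlier results of these data known. Alternatives covered the read minimum, tile position, CpG range, class limits, location rules, thinning of reads, other tests and leaving out each library. Lambda DNA reads, which monitor conversion, were not analysed here. Of the example sequences, 2 are not reported here.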

Additional observations from a re-analysis of the deposited data

Results flagged for a closer look

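The gap in pooled level between gene body and intergenic tiles had opposite signs in different cell types. Gene body tiles were higher than intergenic tiles in both ASC libraries, by 0.628 points on average, and in both EpiSC libraries, by 7.97 points, while the gap was -1.40 points in ESCs, with both libraries below 0. For the median tile in place of pooled reads the ASC direction turned, with gene body tiles at a mean of 59.8% in the ASC libraries and intergenic tiles at 62.8%. The exact permutation test over the 3 cell types gave p = 0.0667, the smallest it allows, and pairs of cell types were not tested.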

How the results depend on the processing

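Of 291 values of the comparisons recomputed under the alternatives, 262 kept their direction and their side of the threshold, or stayed within 1.5 times the count. Tests between the cell types could not cross the threshold of 0.05, since their exact permutation test allows no p under 0.0667. Only the direction could change there. Leaving out a library also left the levels and shares of the other cell types as they were. The count of 262 is thus no measure of robustness. The gap between gene body and intergenic tiles, 2.40 points over all libraries, changed sign. It was 5.17 points with a read minimum of 100 (exact p = 0.03125), -0.0515 points with the unweighted mean over CpG sites and -0.650 points for the median tile, where the promoter gaps widened from -20.7 to -38.1 points to intergenic and from -23.1 to -37.4 points to gene body tiles. Limits of 10% and 90% or 30% and 70% moved the ASC share of high tiles to 0.575% or 24.5%. With 46 to 75 CpG sites the promoter to intergenic gap no longer was wider in EpiSCs than in ASCs, with a difference of 0.295 points, and the cause was not tested. Leaving out any 1 library gave promoter to intergenic gaps of -22.8 to -19.4 points and promoter to gene body gaps of -26.0 to -20.6 points, at adjusted p = 0.09375, because 5 libraries allow no p under 0.0625. Without a minimum difference ASCs were higher than EpiSCs at 627 tiles and lower at 25716, higher than ESCs at 27256 and lower at 22, and EpiSCs were lower than ESCs at 113. With a minimum of 40 points these comparisons gave 17 and 6855 for ASCs against EpiSCs, 10435 higher against ESCs, and 0 lower in EpiSCs than in ESCs. With 46 to 75 CpG sites 17562 tiles were left, with 75 higher and 8579 lower against EpiSCs, 8876 higher against ESCs, and 12852 higher in EpiSCs than in ESCs. Replicate numbers did not pair the samples (correlation of deviations -0.00735, -0.00862 and -0.0046), and the replicate block gave the same counts, 114 and 15882, 18016, and 23852 and 1. Among the named tiles 3 lost their call, Pde4b, Runx3 and Lhx9, all at the 40-point minimum. With every tile thinned to its shallowest library the counts were 121 and 16011 for ASCs against EpiSCs.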

Other observations

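CpG sites of mitochondrial DNA read between 41.1% and 49.3% methylation in the 6 libraries, over 14436 to 27417 reads each, and did not serve as a floor for unconverted cytosine. The 7182 tiles of intermediate CpG number that missed the read minimum had pooled levels of 89.9% in EpiSCs, 69.9% in ASCs and 29.9% in ESCs, and 86.5% of them were over 60% soft-masked, against 7.79% of the tiles kept.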
